A study of Mus musculus with 8 samples.

Results

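The 10 genes described here belong to prostaglandin synthesis and signalling. They were taken by name from the 55450 genes of the GENCODE annotation (21951 of them protein-coding), and every peak within 2000 bp of one of their transcription start sites (TSSs) or inside the gene was collected. *Pla2g4a* releases the precursor, *Ptgs1* and *Ptgs2* encode the cyclooxygenases, *Ptges*, *Ptges2*, *Ptges3* and *Ptgis* encode synthases, and *Ptger2*, *Ptger4* and *Ptgfr* encode receptors. Peaks came from chromatin immunocleavage sequencing (ChIC-Seq), in which an antibody brings micrococcal nuclease to the chromatin that its antigen occupies and the released fragments are sequenced. The antibodies were against PBRM1 (BAF180), a bromodomain subunit of the PBAF form of the SWI/SNF chromatin remodeling complex, and BRG1, an ATPase of SWI/SNF complexes. Each was used on 3 libraries of stromal cells, isolated from the uteri of WT mice aged 8 to 12 weeks on D4. Both groups were WT and carried no deletion, so the lists hold no contrast of genotypes.

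The labels place the mice on D4 of pregnancy, but the extraction protocol describes 5 to 10 pseudopregnant uterine horns, digested, filtered and plated for some hours before fixation. They do not say whether the replicates of an antibody came from separate pools of horns, so the spread between replicates may be technical. Each library had 50000 cells and was fixed for 5 minutes, as the labels state. The study also made 2 IgG libraries, not analysed here. The 6 replicate lists rested on 8868777 to 16505239 fragments and held 21912 to 40610 peaks, and the pooled lists of PBRM1 and BRG1 held 55119 and 82669 peaks. Fold enrichment is the fragment pileup at a summit divided by the local background of the same library, a value that cannot be set on 1 scale across libraries. Pooled promoter peaks of both antibodies were found at 7 of 7 stromal and 6 of 6 epithelial markers, and a peak in all 6 replicates at 5 of 7 stromal and 1 of 6 epithelial ones (51.9% of protein-coding genes had a promoter peak in all 6). The pooled lists had a promoter peak at 2 (PBRM1) and 3 (BRG1) of 3 endothelial markers, and at 0 and 1 of 3 leukocyte markers. A peak in all 6 replicates was present at 0 of 3 endothelial and 0 of 3 leukocyte markers. In the pooled lists 68.7% (PBRM1) and 72.1% (BRG1) of protein-coding genes had a promoter peak. A promoter peak is not expression, so these counts do not measure how many other cells were present.

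Prostaglandins are made from arachidonic acid. Cytosolic phospholipase A2, the product of *Pla2g4a*, frees arachidonic acid from membranes, the cyclooxygenases turn it into prostaglandin H2, and separate synthases convert that into prostaglandin E2 or prostacyclin, which act on receptors of the cell surface and, for some ligands, in the nucleus. In the mouse uterus this pathway is known for its part in implantation, when *Ptgs2* is induced in cells around the blastocyst, and in the decidualization of stromal cells.

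The sequences below carry the points to which the values return. The first 4 are the 200 bases before the RefSeq start site (GRCm38.p6), written 5′ to 3′ in the direction of the gene with each CpG in capitals, and they are shown because the promoters of this pathway run from CpG-poor to CpG-rich. The *Ptgs2* stretch (chr1:150099831-150100030, plus strand) holds 10 CpGs, that of *Ptges* (chr2:30903298-30903497, minus strand) 7, that of *Ptger2* (chr14:44987911-44988110, plus strand) 3 and that of *Ptger4* (chr15:5244188-5244387, minus strand) 16.
Ptgs2: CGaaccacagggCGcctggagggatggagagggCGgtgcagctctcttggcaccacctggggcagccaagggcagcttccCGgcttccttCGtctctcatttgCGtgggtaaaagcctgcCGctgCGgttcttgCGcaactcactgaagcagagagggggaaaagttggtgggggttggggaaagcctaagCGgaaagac
Ptges: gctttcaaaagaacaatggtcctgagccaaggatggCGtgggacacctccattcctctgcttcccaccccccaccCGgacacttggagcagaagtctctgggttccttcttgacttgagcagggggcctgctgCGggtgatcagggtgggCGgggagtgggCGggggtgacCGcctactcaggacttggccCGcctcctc
Ptger2: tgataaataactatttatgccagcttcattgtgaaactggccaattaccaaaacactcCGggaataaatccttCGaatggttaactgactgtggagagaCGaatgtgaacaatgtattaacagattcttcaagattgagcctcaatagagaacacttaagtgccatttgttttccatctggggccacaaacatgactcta
Ptger4: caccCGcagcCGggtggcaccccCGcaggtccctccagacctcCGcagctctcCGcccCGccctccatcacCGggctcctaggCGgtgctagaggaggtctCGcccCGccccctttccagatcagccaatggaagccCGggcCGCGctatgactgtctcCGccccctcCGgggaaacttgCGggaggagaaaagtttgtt

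Another 2 sequences lie far from the coding start sites. They are 201 bases centred on a BRG1 summit, written on the plus strand, with matches to the searched motifs in capitals. The first is the peak at the upstream start site of *Ptges* (chr2:30929628-30929828), where TGACGTCA, the full cAMP response element, and a further CGTCA stand in capitals. The second is an intronic site of *Pla2g4a* (chr1:149862829-149863029), where the capitals mark AGAACA, the reverse complement of the progesterone response element half-site TGTTCT.
Ptges upstream site: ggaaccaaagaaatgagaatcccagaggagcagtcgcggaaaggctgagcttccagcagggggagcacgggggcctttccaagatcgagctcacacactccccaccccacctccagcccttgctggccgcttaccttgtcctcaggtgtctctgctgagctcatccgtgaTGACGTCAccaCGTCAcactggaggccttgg
Pla2g4a intronic site: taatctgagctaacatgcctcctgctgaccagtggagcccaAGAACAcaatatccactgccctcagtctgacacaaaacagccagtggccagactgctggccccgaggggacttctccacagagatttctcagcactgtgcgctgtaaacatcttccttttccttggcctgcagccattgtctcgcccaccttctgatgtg

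All 10 genes had a promoter peak in the pooled PBRM1 list and in the pooled BRG1 list, where 68.7% and 72.1% of all protein-coding genes had one. The pooled promoter peaks of the antibodies overlapped by at least 1 bp at all 10, against 67.2% of protein-coding genes. In the separate replicates the genes divided. A peak was present in all 3 PBRM1 replicates at 7 of 10 genes (background 52.2%) and in all 3 BRG1 replicates at 8 of 10 (background 61.4%), and 7 of 10 had one in all 6 replicates (background 51.9%, as above). Those 7 were *Ptgs1*, *Ptgs2*, *Ptges*, *Ptges2*, *Ptges3*, *Ptger2* and *Ptger4*. The phospholipase, prostacyclin synthase and F2α receptor genes, *Pla2g4a*, *Ptgis* and *Ptgfr*, lacked a peak in at least 1 replicate. By library, 8, 9 and 9 of the genes had a promoter peak in PBRM1 replicates 1, 2 and 3, and 9, 10 and 9 in those of BRG1. The shares of all protein-coding genes in the same lists were 60.0%, 60.7% and 55.3% (PBRM1) and 66.1%, 65.1% and 65.0% (BRG1).

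The peaks at these genes were mostly weaker than those at other genes. In every replicate list the median fold enrichment of the members with a peak (5.27 to 7.38) lay below the median of all protein-coding genes with a promoter peak in the same list (5.73 to 8.22). Their median percentile by −log10 q, the share of peaks in the list with a lower value, was also lower in all 6 replicates, at 53.2 to 74.2 against 72.1 to 82.4 for all genes. Some members went the other way. By −log10 q, *Ptges3* was above 55.3% to 93.1% of these genes over the 6 replicates, and *Ptger4* above 53.1% to 68.2%. *Ptges2* was above 39.3% to 72.5% with PBRM1 and 66.2% to 70.2% with BRG1. By fold enrichment *Ptger4* was above 33.5% to 52.5%.

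**Figure D1:**
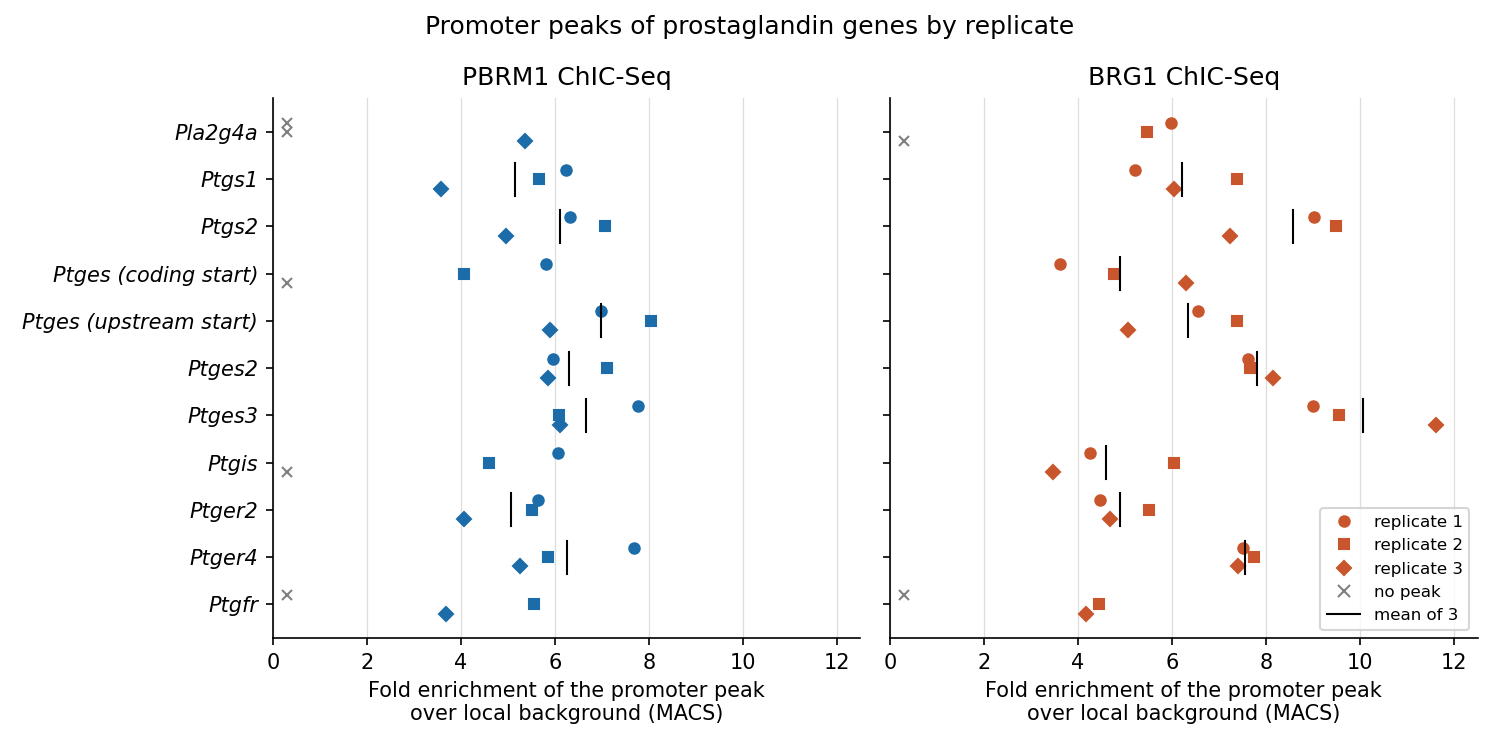
Fold enrichment of the promoter peak of each gene in the 3 PBRM1 (left) and 3 BRG1 replicates (right). Symbols are replicates, black bars are means of 3, and grey crosses near the axis mark a replicate without a peak, such as PBRM1 replicates 1 and 2 at *Pla2g4a*; *Ptges* is drawn at its coding and its upstream start site.

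*Pla2g4a*, on the minus strand of chromosome 1 (149829618 to 149961290), showed its promoter peak in a minority of the PBRM1 replicates. The peak had a fold enrichment of 5.38 in PBRM1 replicate 3 and was not called in PBRM1 replicates 1 and 2. It had 5.99 and 5.48 in BRG1 replicates 1 and 2 and was not called in BRG1 replicate 3. Pooling gave a peak with both antibodies, at 4.53 for PBRM1 and 6.03 for BRG1. The gene is the longest of the 10, at 131.7 kb, and 7 further sites were called inside it, of which 1 was found in more than 1 replicate. That site (chr1:149862737-149863238) lay in an intron 98361 bp downstream of the main start site, defined here as the 5′-most coding start. Its fold enrichment was 4.11 in PBRM1 replicate 3 and 4.39 and 7.33 in BRG1 replicates 1 and 3. In the pooled BRG1 list it was stronger than the promoter peak of the same gene, with a fold enrichment of 7.79 against 6.03 and a −log10 q of 18.2 against 13.9, whereas in the pooled PBRM1 list it was weaker, at 4.09 against 4.53.

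The genes of the cyclooxygenases both had a promoter peak in all 6 replicates. *Ptgs1* (chromosome 2, 36230426 to 36252272, plus strand), the constitutive enzyme of many tissues, had fold enrichments of 6.24, 5.66 and 3.59 with PBRM1, a mean of 5.16 ± 1.40 (SD, n = 3). With BRG1 the values were 5.22, 7.38 and 6.05, a mean of 6.21 ± 1.09 (SD, n = 3). PBRM1 replicate 3 was the lowest, and its peak stood at percentile 7.17 of its list. The pooled summits lay 203 bp (PBRM1) and 68 bp (BRG1) downstream of the start. Of the 3 weaker sites at internal noncoding transcripts of *Ptgs1*, 1 was seen in 2 BRG1 replicates and the others in no replicate.

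*Ptgs2* (chromosome 1, 150100031 to 150108227, plus strand), the inducible cyclooxygenase, had a single site in all 8 lists and none in its gene body. The fold enrichments were 6.33, 7.06 and 4.96 in the PBRM1 replicates, a mean of 6.12 ± 1.07, and 9.02, 9.50 and 7.23 in the BRG1 replicates, a mean of 8.58 ± 1.20 (SD, n = 3 each). Replicate 3 was the lowest with both antibodies. The BRG1 summits fell within 75 bp of each other, 68, 143 and 74 bp upstream of the start. The PBRM1 summits were spread over 440 bp, from 191 bp upstream to 249 bp downstream. The antisense transcript *Ptgs2os* starts divergently, and the pooled BRG1 summit, 74 bp upstream of *Ptgs2*, was 6 bp from the start of *Ptgs2os*, so the peak cannot be assigned to either of the pair. All the BRG1 summits lay within the printed promoter stretch.

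Few fragments stood behind the *Ptgs2* peak. Its pileup was 11, 17 and 11 fragments in the PBRM1 replicates and 22, 18 and 15 in the BRG1 replicates. Among protein-coding genes with a promoter peak in the same list, 3.20% to 19.2% had a lower pileup with PBRM1 and 13.6% to 20.8% with BRG1. By fold enrichment the gene ranked higher, above 31.3% to 54.8% of genes with PBRM1 and 37.3% to 66.9% with BRG1. In the pooled lists it exceeded 67.7% and 75.2% of genes by fold enrichment but only 24.8% and 26.3% by pileup. The placing of *Ptgs2* among other genes therefore depended on which value of the list was read.

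The phospholipase and cyclooxygenase 2 genes are neighbours on chromosome 1, with 138.7 kb between them. That interval holds 3 annotated genes, the pseudogene *Gm19136*, the miRNA gene *Gm44329* and *Ptgs2os*. Outside the promoter windows at its ends, 1 site was called in it (chr1:150008609-150008934), in the pooled BRG1 list only, with a fold enrichment of 5.70, and in none of the 6 replicates.

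The protein-coding genes whose 6 percentiles were most like those of *Ptgs2* were *Slc16a7*, *Cited4* and *Eno2*, with a mean absolute difference of 2.41, 2.42 and 2.48 percentile points over the 6 replicates. They were the closest of the genes with a promoter peak in every replicate, and the measure is a description of these lists.

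**Figure D2:**
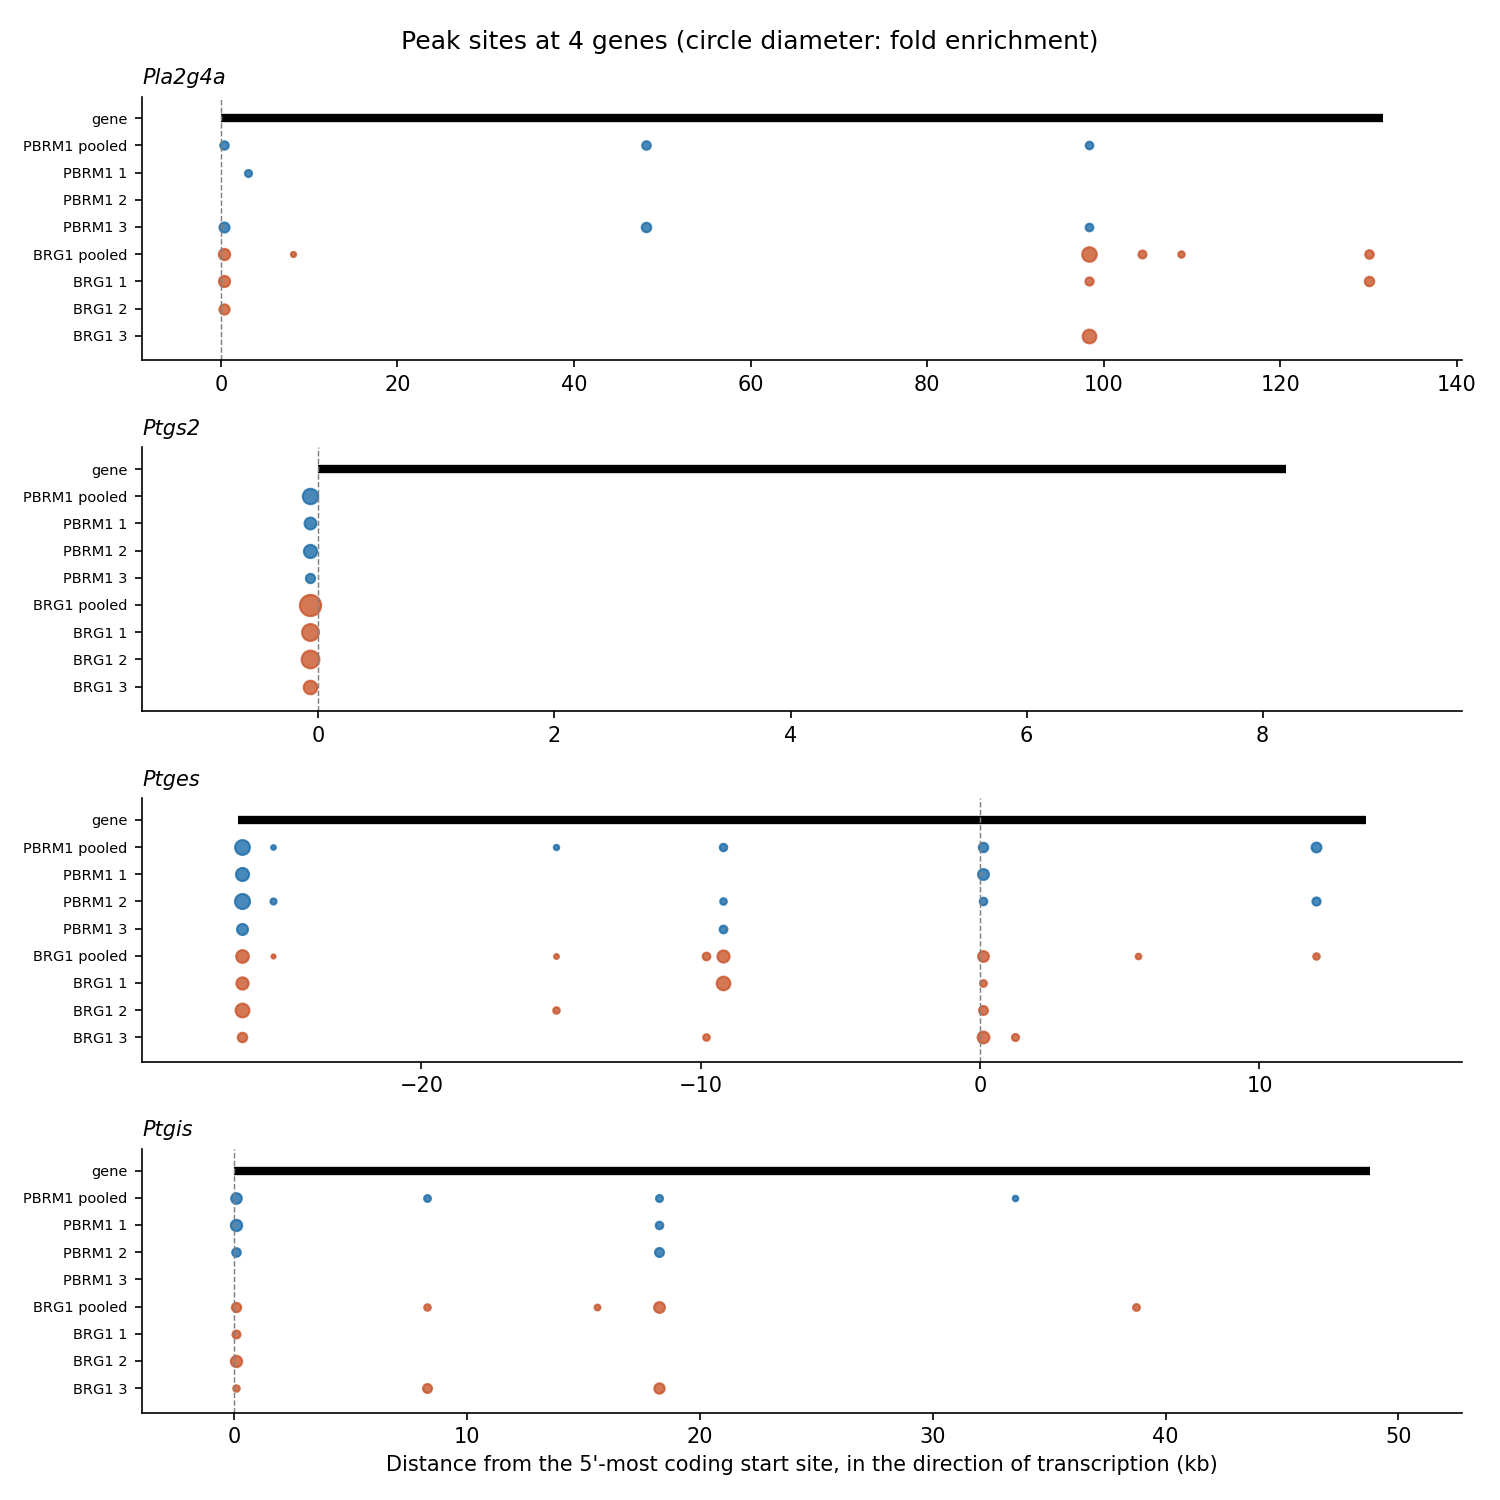
Peak sites at *Pla2g4a*, *Ptgs2*, *Ptges* and *Ptgis* by distance from the 5′-most coding start site in kb, with 1 row per list, a circle wherever the list had a peak (placed at 1 summit per site, that of pooled BRG1 where called; diameter: fold enrichment) and the gene as a black bar. *Ptgs2* has 1 site in all 8 lists, and *Ptges* has its most enriched pooled site 26431 bp upstream of its coding start.

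The E synthase genes differed in where the peak lay. *Ptges* (chromosome 2, 30889471 to 30929863, minus strand) encodes the inducible microsomal prostaglandin E synthase. Its strongest pooled peak was not at the protein-coding start but 109 bp (PBRM1) and 135 bp (BRG1) inside a noncoding processed transcript that starts 26566 bp further upstream. At that upstream start the fold enrichment was 6.99, 8.04 and 5.90 with PBRM1, a mean of 6.98 ± 1.07, and 6.55, 7.37 and 5.07 with BRG1, a mean of 6.33 ± 1.17 (SD, n = 3 each). The coding start had 5.81 and 4.06 in PBRM1 replicates 1 and 2 and no peak in replicate 3. With BRG1 it had 3.62, 4.76 and 6.30, a mean of 4.89 ± 1.34 (SD, n = 3). The upstream site was more enriched than the coding start in both PBRM1 replicates that had both peaks and in BRG1 replicates 1 and 2, and less enriched in BRG1 replicate 3. With the coding start alone, *Ptges* would not be counted among the genes with a peak in all 3 PBRM1 replicates.

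The sequence of the upstream site of *Ptges*, printed above, contains TGACGTCA once. This string occurred in the 200 bases before the start of 1.94% of 17492 RefSeq protein-coding promoters, and in 0.424% of the 201 bp windows at 53125 pooled BRG1 peaks more than 2000 bp from any TSS. It was added to the search after the sequence had been read, because both half-site matches (TGACG and its reverse complement CGTCA) overlapped there. *Ptges* also had an intronic site between its upstream and coding starts (chr2:30912157-30912726), seen in PBRM1 replicates 2 and 3 and BRG1 replicate 1, with 3.53, 4.15 and 7.29.

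*Ptges2* and *Ptges3* encode the other enzymes named as prostaglandin E synthases, of which the second is also the HSP90 co-chaperone p23. *Ptges2* (chromosome 2, 32395896 to 32405772, plus strand) had fold enrichments of 5.96, 7.11 and 5.85 with PBRM1 and 7.62, 7.66 and 8.15 with BRG1, with means of 6.30 ± 0.698 and 7.81 ± 0.297 (SD, n = 3 each). Its peak was also wide, at 1156 ± 117 bp for PBRM1 and 1197 ± 54.8 bp for BRG1. The median over all peaks of a replicate list, at promoters or elsewhere, was 307 to 391 bp. Other members also exceeded that median, such as *Ptges3* (means of 855 bp with PBRM1 and 929 bp with BRG1) and *Ptger4* (822 and 840 bp). *Ptges3* (chromosome 10, 128058954 to 128077272, plus strand) had 7.78, 6.09 and 6.11 with PBRM1, a mean of 6.66 ± 0.970, and 9.00, 9.56 and 11.6 with BRG1, a mean of 10.1 ± 1.39 (SD, n = 3 each). The *Ptges3* peak had the highest BRG1 mean of the members. In the BRG1 replicates it was above 83.0% to 93.1% of genes by −log10 q and above 61.6% to 85.4% by fold enrichment. Its pooled summits of PBRM1 and BRG1 fell on the same base, 46 bp downstream of the start.

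*Ptgis* (chromosome 2, 167191805 to 167240604, minus strand), which encodes prostacyclin synthase, had the weakest promoter peak of the genes with a peak in all 3 BRG1 replicates. Its fold enrichments were 4.25, 6.04 and 3.47 with BRG1, a mean of 4.59 ± 1.32 (SD, n = 3). PBRM1 replicates 1 and 2 had 6.07 and 4.61, and replicate 3 had no peak. BRG1 replicate 3 was the lowest, at percentile 5.78 of its list. An intronic site (chr2:167221968-167222565), 18262 bp downstream of the start, was found in 3 replicates, with 4.05 and 4.82 in PBRM1 replicates 1 and 2 and 5.52 in BRG1 replicate 3. As at *Pla2g4a*, this intronic peak was more enriched than the promoter peak in the pooled BRG1 list (5.77 against 4.99) and less enriched in the pooled PBRM1 list (3.75 against 5.68).

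The receptor genes ran from regular to marginal. *Ptger4* (chromosome 15, 5206661 to 5244187, minus strand), the EP4 receptor, which signals through cAMP, had 7.69, 5.85 and 5.27 with PBRM1, a mean of 6.27 ± 1.26, and 7.50, 7.75 and 7.41 with BRG1, a mean of 7.56 ± 0.179 (SD, n = 3 each). By fold enrichment the BRG1 replicates of *Ptger4* had the lowest SD of the members with 3 BRG1 values, whereas by percentile in the list that of *Ptges2* was lower (0.878 against 1.37). Its BRG1 summits lay 164, 149 and 164 bp upstream of the start, inside the CpG-rich stretch printed above.

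*Ptger2* (chromosome 14, 44988195 to 45003820, plus strand), the EP2 receptor, which also signals through cAMP, had a weaker peak with both antibodies. The strongest promoter peak had 5.64, 5.52 and 4.07 with PBRM1, a mean of 5.08 ± 0.876, and 4.47, 5.50 and 4.68 with BRG1, a mean of 4.88 ± 0.544 (SD, n = 3 each). In PBRM1 replicate 3 this was a separate peak 1992 bp downstream of the start, and the peak at the site shared by all 6 replicates had 3.96 there. All but that summit lay 177 to 907 bp downstream of the GENCODE coding start. The noncoding genes *Gm17173* and *Gm49364* start on the opposite strand within 2000 bp, so the peaks cannot be assigned to one gene.

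*Ptgfr* (chromosome 3, 151796502 to 151837630, minus strand), the prostaglandin F receptor, was called in the fewest replicates of the receptors. PBRM1 replicates 2 and 3 had 5.55 and 3.70 and BRG1 replicates 2 and 3 had 4.45 and 4.18, while replicate 1 of both antibodies had none. The strongest summits of the BRG1 replicates were at different places, 671 bp downstream and 487 bp upstream of the start. Both pooled lists had a peak, at 4.68 for PBRM1 and 4.69 for BRG1. *Gm43618*, an annotated transcript on the opposite strand that still awaits experimental support, starts within 2000 bp.

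Among genes with a peak in all 3 replicates of the antibody, the PBRM1 peaks ran, in order of mean fold enrichment, *Ptges*, *Ptges3*, *Ptges2*, *Ptger4*, *Ptgs2*, *Ptgs1* and *Ptger2*, and the replicate ranges of every pair of neighbours overlapped. The BRG1 order was *Ptges3*, *Ptgs2*, *Ptges2*, *Ptger4*, *Ptges*, *Ptgs1*, *Ptger2* and *Ptgis*. The BRG1 ranges of neighbours overlapped at every step but that from *Ptger4* (lowest 7.41) to *Ptges* (highest 7.37). Those 2 values come from different libraries, and within each of the 3 libraries *Ptger4* was the higher. Overlap of ranges sets values of different libraries side by side, so neighbours were also compared within each library. *Ptgs1* was above *Ptger2* in every BRG1 library and *Ptgs2* above *Ptgs1* in every PBRM1 library, although their ranges overlapped. The remaining neighbours did not keep their order in every library. In this order *Ptges* stood with its strongest promoter peak, which was the coding one in BRG1 replicate 3, a mean of 6.74 ± 0.564 (SD, n = 3). The pooled lists gave another order, with *Ptgs2* the most enriched of the members with both antibodies. Its pooled fold enrichment was 8.22 with PBRM1, where *Ptges* had 7.92, and 11.3 with BRG1, where *Ptges3* had 10.7.

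The antibodies were compared by the percentile of the promoter peak within its own list, for the 7 genes with a peak in all 6 replicates. The BRG1 lists are longer (36656 to 40610 peaks against 21912 to 26363), and promoter peaks of most genes stand higher in them, so a difference is read beside that of all genes and beside the rank among the promoter peaks of a list. *Ptges3* stood at 83.4, 78.2 and 85.7 with PBRM1 and at 94.4, 95.4 and 97.6 with BRG1, a difference (PBRM1 minus BRG1) of −13.4 percentile points. The values of *Ptges2* were 65.0, 87.1 and 84.2 against 88.7, 87.7 and 89.4, a difference of −9.86, which was −2.98 without PBRM1 replicate 1. For *Ptger4* they were 83.0, 76.9 and 79.5 against 86.5, 85.5 and 83.8, a difference of −5.46. At these 3 genes the PBRM1 replicates were all below those of BRG1 (exact permutation test, two-sided, p = 0.1 each, the smallest that 3 against 3 can give, and adjusted p = 0.233 over the 7 genes). None of the 7 genes had every PBRM1 replicate above every BRG1 replicate. Across the 11388 protein-coding genes with a promoter peak in all 6 replicates, PBRM1 was below BRG1 without overlap at 40.1% and above it at 2.76%. The median difference was −9.86 points over the 7 genes and −8.77 over all of them, so 3 of 7 is close to the background. Ranked among promoter peaks only, *Ptges3* alone had every PBRM1 replicate below every BRG1 replicate (background 27.7%), with a difference of −17.6 points (exact permutation p = 0.1), and no gene had the reverse (background 5.34%). The differences were then −9.19 for *Ptges2* (exact permutation p = 0.4) and −2.77 for *Ptger4* (exact permutation p = 0.6), with overlapping replicates, against a median of −7.22 over all genes.

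*Ptgs2* and *Ptgs1* had larger mean differences but overlapping replicates. *Ptgs2* stood at 45.6, 64.2 and 36.8 with PBRM1 and at 74.2, 73.9 and 62.9 with BRG1, a difference of −21.5 points (exact permutation test, p = 0.2, adjusted p = 0.35). *Ptgs1* differed by −21.9 points (exact permutation p = 0.3, adjusted p = 0.42), and by −7.35 without PBRM1 replicate 3. Among promoter peaks only, the differences were −16.9 for *Ptgs2* and −13.7 for *Ptgs1*. *Ptges* stood 5.54 points higher with PBRM1 (exact permutation p = 0.6, adjusted p = 0.7), and 14.0 points higher among promoter peaks only (exact permutation p = 0.3). *Ptger2* differed by −0.307 points (exact permutation p = 0.9, adjusted p = 0.9). No difference passed a threshold of 0.05, which this design cannot reach.

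**Figure D3:**
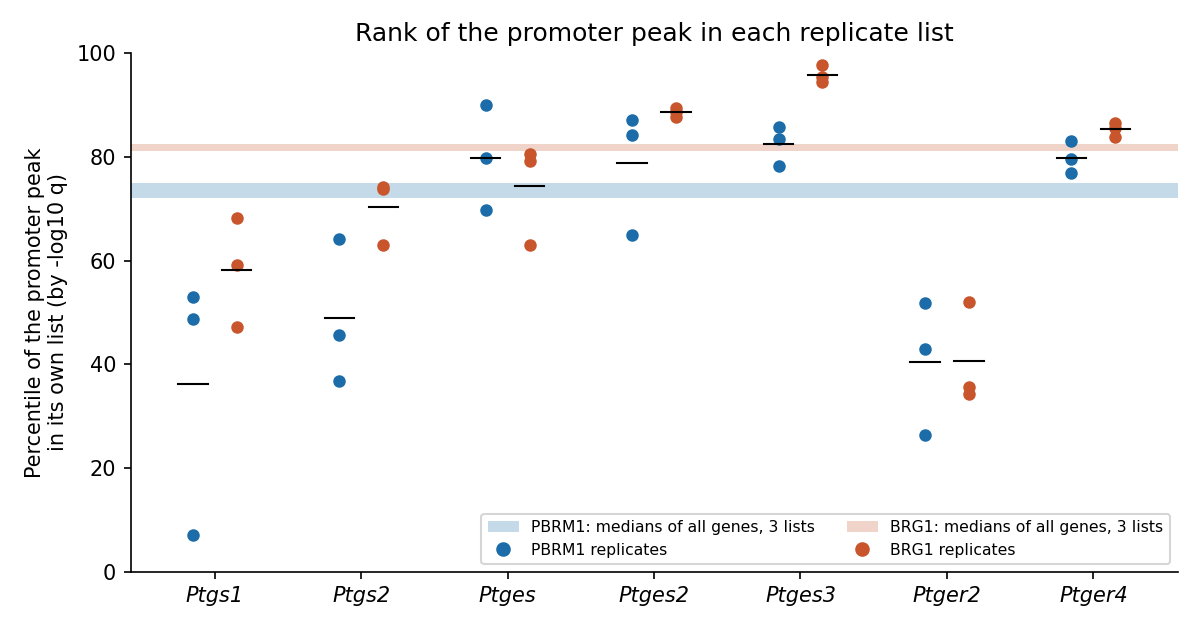
Percentile of the promoter peak in its own replicate list (vertical axis, by −log10 q) for the 7 genes with a peak in all 6 replicates. Points are replicates, black bars are means, and the bands span the medians of all protein-coding genes with a promoter peak in the 3 lists of an antibody; *Ptges3*, *Ptges2* and *Ptger4* have all BRG1 points above all PBRM1 points in this ranking.

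Where the pooled promoter peaks of the antibodies overlapped, their summits lay 0 bp (*Ptges3*) to 320 bp (*Ptgs2*) apart at the 10 genes, with a median of 110 bp. The median was 59 bp over the 13873 protein-coding genes whose strongest pooled promoter peaks overlapped (quartiles 16 and 150 bp). *Ptgs2*, *Ptges2* (304 bp) and *Pla2g4a* (256 bp) were above the upper quartile. *Ptges3*, *Ptgis* (16 bp), *Ptges* (26 bp) and *Ptger4* (33 bp) were below the median.

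Counted by start site, 15 of the 34 annotated start sites of the members had a peak within 2000 bp in all 6 replicates (43.6% of the start sites of all protein-coding genes), and 8 had none in any replicate (38.8%). The merged peaks of the 8 lists formed 40 sites. Of these, 7 were found in all 6 replicates, 6 at coding starts and 1 at the upstream start of *Ptges*. A further 11 sites were called in the pooled lists alone. The 19 gene-body sites included none in all 6 replicates, and 3 that were found in at least 2, at *Pla2g4a*, *Ptges* and *Ptgis*.

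A gene-body peak was present in the pooled PBRM1 list at 4 of 10 genes (background 29.0%) and in the pooled BRG1 list at 5 of 10 (background 36.4%). *Pla2g4a*, *Ptges*, *Ptges2* and *Ptgis* had one with both antibodies and *Ptger4* with BRG1. *Ptgs1*, *Ptgs2*, *Ptges3*, *Ptger2* and *Ptgfr* had none in a pooled list, although *Ptgfr* is 41.1 kb long. Per 100 kb of gene outside the promoter windows there were 2.58 pooled PBRM1 peaks and 5.15 pooled BRG1 peaks in the members, against 1.94 and 3.34 over all protein-coding genes. Of the members' gene-body peaks, 2 of 8 for PBRM1 and 1 of 16 for BRG1 met a peak in at least 2 replicates of the same antibody, whereas 18.7% and 24.1% did so over all genes.

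The promoters differed in CpG content. Within 500 bp of the main start site the observed/expected CpG ratio was 1.00 at *Ptges3*, 0.716 at *Ptges2* and 0.695 at *Ptger4*, the 3 genes whose BRG1 percentiles were the highest of the members. It was 0.335 to 0.497 at *Pla2g4a*, *Ptges*, *Ptgs1*, *Ptgs2*, *Ptgis* and *Ptgfr*, and 0.220 at *Ptger2*, against a median of 0.561 over 21839 protein-coding genes. Across all genes the share with a promoter peak in every replicate rose with this ratio. Where it was under 0.25, 8.79% of 6191 genes had a peak in all 3 PBRM1 replicates and 13.0% in all 3 BRG1 replicates, and *Ptger2* was among these genes. Its strongest summits, however, mostly lay outside the 500 bp in which the ratio was taken. They were 519 to 1992 bp downstream of the main start in every replicate except BRG1 replicate 3 (177 bp).

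Between 0.25 and 0.5 the shares were 31.7% (PBRM1) and 44.2% (BRG1) of 3810 genes. Of the 6 members in this class, 3 (*Ptgs1*, *Ptgs2* and *Ptges*) had a peak in all 3 PBRM1 replicates, and these and *Ptgis* in all 3 BRG1 replicates, though the constant site of *Ptges* is not the start at which the ratio was taken. Between 0.5 and 0.75, the class of *Ptges2* and *Ptger4*, the shares were 76.1% (PBRM1) and 88.6% (BRG1) of 5717 genes. Above 0.75, the class of *Ptges3*, the shares were 86.4% and 95.6% of 6121 genes.

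**Figure D4:**
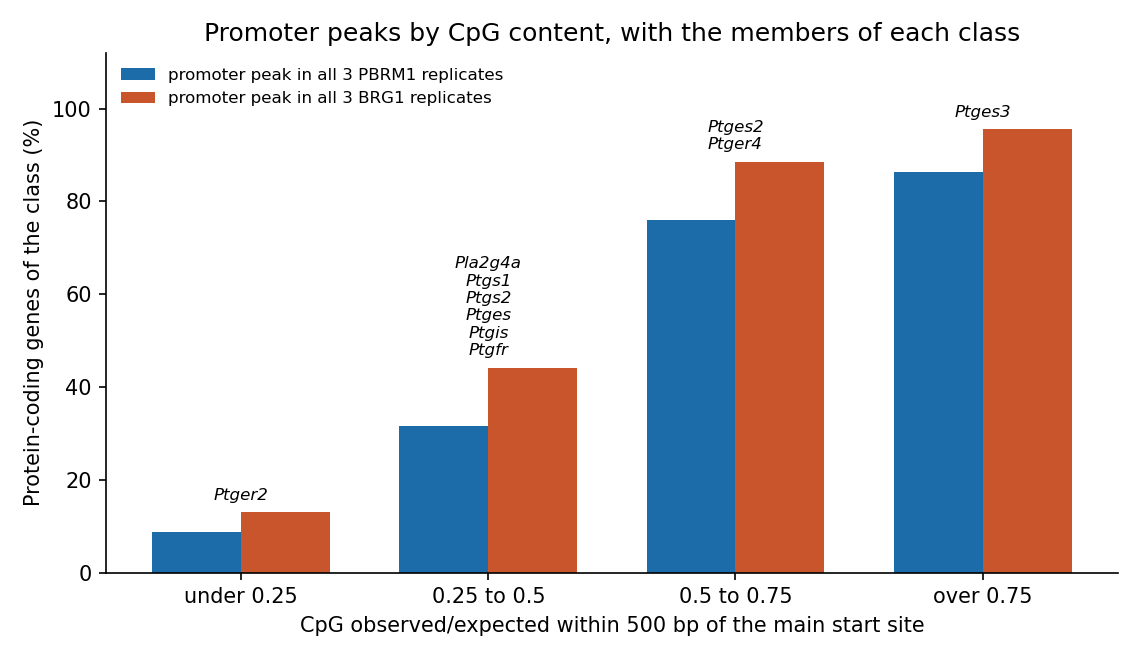
Share of protein-coding genes with a promoter peak in all 3 PBRM1 (blue) or all 3 BRG1 replicates (orange), in percent, by the CpG observed/expected ratio within 500 bp of the main start site, with the members of each class named above its bars. The shares run from 8.79% to 86.4% (PBRM1) and from 13.0% to 95.6% (BRG1).

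The 200 bases before the RefSeq start were available for 9 of the 10 genes (not *Ptgis*). GGGCGG, the GC box, was found on either strand in those of *Ptgs2*, *Ptges*, *Ptges3*, *Ptger4* and *Ptgfr*, and in 40.9% of all protein-coding promoters. CCAAT stood in those of *Ptger2* and *Ptger4* (32.0% of all promoters), and CACGTG in that of *Ptges2* (5.81%). TGTTCT matched in the windows of *Ptges* and *Ptger2* (10.7%) and CATCTG in that of *Ptger2* (9.94%). TATAAA matched only in the second, internal window of *Pla2g4a* (10.1%), where no replicate had a peak. TGACG (18.1%), TGACTCA (3.22%) and AGATAA (6.88%) had no match in these windows. In the printed intronic site of *Pla2g4a*, TGTTCT had 1 match, as in 15.6% of the BRG1 windows away from TSSs. These are matches of letters and do not show that a factor binds.

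Among 25 other genes of prostaglandin metabolism and signalling, 16 had a pooled PBRM1 promoter peak (background 68.7%) and 19 a pooled BRG1 one (background 72.1%). A peak in all 6 replicates was present at 11 (background 51.9%). The 11 were genes of precursor release and synthesis (*Tbxas1*, *Prxl2b*, *Akr1b3*, *Pla2g6*), of receptors (*Ptger1*, *Ppard*) and of prostaglandin breakdown or transport (*Hpgd*, *Ptgr1*, *Ptgr2*, *Slco2a1*, *Abcc4*). *Hpgd*, whose enzyme begins the inactivation of prostaglandins, had fold enrichments of 10.6, 8.59 and 8.27 with PBRM1 and 12.2, 15.2 and 11.6 with BRG1. *Pla2g6*, which encodes a calcium-independent phospholipase A2, had 12.0, 9.03 and 7.70 with PBRM1 and 13.4, 12.4 and 13.1 with BRG1. Both genes were above all 10 members in every library, except that *Ptges3* was marginally higher than *Hpgd* in BRG1 replicate 3. *Ptger1*, the EP1 receptor, had lower values, 4.94, 4.74 and 4.38 with PBRM1 and 5.22, 5.29 and 4.64 with BRG1.

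In 8 of the 25 genes no replicate had a promoter peak. The share of all protein-coding genes without one in any replicate was not computed, so this count has no background. In the replicate list with the largest share, BRG1 replicate 1, 66.1% of protein-coding genes had a promoter peak. The count is therefore not read as a feature of these genes. The 8 were the secreted and other phospholipases *Pla2g2a*, *Pla2g4b*, *Pla2g5* and *Pla2g10*, the D synthase *Ptgds*, the aldo-keto reductases *Akr1b7* and *Akr1c18*, and the D receptor *Ptgdr2*. *Pla2g2a* is annotated as a polymorphic pseudogene and not as protein-coding. Of these, *Pla2g4b* and *Pla2g5* had a peak in the pooled BRG1 list, and the other 6 had none in a pooled list.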

How the data were processed

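ChIC-Seq peak lists of WT primary uterine stromal cells were used, 1 for each of 3 PBRM1 and 3 BRG1 replicates and 1 pooled list per antibody, with groups taken from the labels. Reads were trimmed by the authors, mapped to mm10 (Bowtie2), cleared of multimapping and duplicate pairs, and passed to MACS 2.2.7.1 for peak calling. Per the file headers the q-value cutoff was 0.05, the regional background 10000 bp, and no control file was named, so a peak may also mark open chromatin. The deposited lists give each peak's pileup signal in fragments, its fold enrichment (a ratio to the local background) and its −log10 q-value. The pooled lists rested on more fragments (38144108 for PBRM1 and 37842839 for BRG1) and reached weaker sites. Their median fold enrichments were 3.98 and 4.28, against 4.75 to 5.80 in the replicates. The part of depth in this was not tested.

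The members and the gene lists were chosen with earlier results of these data known. The labels' build (GRCm38.p5) has the same chromosome coordinates as the GRCm38.p6 reference read here. A promoter peak lay within 2000 bp of any GENCODE start site of the gene, and the one with the highest −log10 q was used. A gene-body peak touched the gene and no promoter window of it. Overlap meant at least 1 bp. Percentiles within a list were compared with a two-sided exact permutation test and Benjamini-Hochberg adjustment over the 7 genes tested. Named were the 10 members, 25 other pathway genes (values for some of those with a promoter peak in all 6 replicates or in none), genes starting within 2000 bp of a member or lying between *Pla2g4a* and *Ptgs2*, and the 3 genes closest to *Ptgs2* in percentile. *Prxl2b* is listed in GENCODE as *Fam213b*. Motifs were exact strings on both strands. Alternatives covered the promoter distance, stricter peaks, other start sites, the overlap, the ranking and each replicate left out. Python 3.11.15, numpy 2.4.6, pandas 2.3.3, scipy 1.17.1, pysam 0.24.0 and matplotlib 3.10.9 were used, and the window search and the test were tested on simulated data.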

Additional observations from a re-analysis of the deposited data

How the results depend on the processing

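Of 42 alternative counts of members, 38 stayed within 1.5 times the reported count. The 7 genes with a promoter peak in all 3 PBRM1 replicates became 4 when each peak had to reach a −log10 q of 5 or a fold enrichment of 5. At either threshold the 8 genes with a peak in all 3 BRG1 replicates became 6. At a fold enrichment of 5 the 10 genes with a pooled promoter peak became 7 for PBRM1 and 8 for BRG1. The genes with a pooled gene-body peak went from 4 to 2 for PBRM1 and from 5 to 1 for BRG1 when that peak had to overlap one in at least 2 of 3 replicates. No shares of all protein-coding genes were taken at these settings, so the falls have no background and are not particular to the members. Of 70 alternative percentile differences, 65 kept their direction. That tally includes the replicate block of each gene, where the difference cannot change by construction. It also includes the limit to the site found in all 6 replicates, which altered the value only at *Ptges* and *Ptger2*. The tally therefore overstates how many alternatives could have changed the direction. None had an exact permutation p under 0.1, the smallest that 3 against 3 can give. With 1 replicate left out, where fewer arrangements exist, no exact permutation p was below 0.2. The replicate block described below cannot give one below 0.25. Ranking among promoter peaks only ended the separation of replicates at *Ptges2* and *Ptger4*. With 1 replicate left out, *Ptges* ranged from −0.0526 points (without BRG1 replicate 3) to 10.6 and *Ptger2* from −6.01 to 6.71, where it was positive without PBRM1 replicate 3 (6.71) or BRG1 replicate 2 (5.36). *Ptger2* also turned to 2.63 when ranked by fold enrichment and to 3.32 among promoter peaks only. The causes were not tested. Limiting each gene to the site found in all 6 replicates, an alternative chosen after seeing the data, gave 5.74 for *Ptges* and −1.03 for *Ptger2*.

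With the replicate number as a replicate block (an exact test of the signs of 3 paired differences, which cannot give a p below 0.25), the differences, such as −21.5 points for *Ptgs2*, are the same by construction, and the exact p was 0.25 for *Ptgs2* and *Ptges3*. The labels share only the numbers. Across 11388 genes the deviations of same-numbered PBRM1 and BRG1 replicates from their group means correlated at −0.0204, −0.00188 and 0.00305, so the numbers were not taken to pair the libraries.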
